A study of Homo sapiens with 16 samples.

Results

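The secreted inflammatory products of MCF10HER2 cells were followed through 10 genes: the chemokines IL8 (now CXCL8), CXCL1, CXCL2, CXCL3 and CCL20, and the interleukin genes IL6, IL1A, IL1B, IL1RN and IL18. Members were taken by gene symbol, and they are 10 of the 18190 symbols on the array. Each gene is given by its probe with the highest mean intensity. The 10 genes have 11 probes, since IL1RN has 2. MCF10HER2 is a human breast epithelial line, made from nontransformed MCF10A cells, that stably over expresses HER2, the receptor tyrosine kinase encoded by ERBB2. All cultures grew in serum-free, insulin-free medium with epidermal growth factor (EGF) and hydrocortisone. A single untreated culture is the 0 h sample, and 15 parallel cultures received the HER2 kinase inhibitor CP724,714 at 1 µM for 3 to 45 h, with 1 array every 3 h and no replicates. Medium was renewed together with the inhibitor, and later untreated cultures were not analysed here, so the inhibitor, the fresh medium and the lone 0 h culture cannot be told apart.

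Chemokines are small secreted proteins that draw leukocytes along a gradient. IL-8 and the products of CXCL1, CXCL2 and CXCL3 act on neutrophils through the receptor CXCR2, and IL-8 also through CXCR1. CCL20 acts through CCR6 on lymphocytes and dendritic cells. IL-1α and IL-18 are stored by epithelial cells and act as alarm signals, IL-6 signals through STAT3, and the product of IL1RN blocks the IL-1 receptor. Many of these genes are switched on by the transcription factor NF-κB, and many of their transcripts are short-lived.

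The 110 bases before the transcription start are shown for 6 of the genes, because a short NF-κB-type motif lies there and the genes that share it differed in their time courses. The sequences are from RefSeq (GRCh38.p14), 5′ to 3′ on the strand of the gene, and capitals mark each match to GGNNTTTCC on either strand. They lie at chr4:73740459-73740568, plus strand (CXCL8), chr4:73869283-73869392, plus strand (CXCL1), chr4:74099196-74099305, minus strand (CXCL2), chr4:74038690-74038799, minus strand (CXCL3), chr7:22727090-22727199, plus strand (IL6) and chr2:227813732-227813841, plus strand (CCL20).
IL8 (CXCL8): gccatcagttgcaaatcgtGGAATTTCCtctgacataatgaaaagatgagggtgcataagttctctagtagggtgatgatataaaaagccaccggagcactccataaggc
CXCL1: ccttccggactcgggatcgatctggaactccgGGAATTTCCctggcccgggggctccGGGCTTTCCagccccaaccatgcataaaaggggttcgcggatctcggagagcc
CXCL2: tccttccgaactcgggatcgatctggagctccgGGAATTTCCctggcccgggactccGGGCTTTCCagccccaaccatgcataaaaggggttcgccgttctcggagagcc
CXCL3: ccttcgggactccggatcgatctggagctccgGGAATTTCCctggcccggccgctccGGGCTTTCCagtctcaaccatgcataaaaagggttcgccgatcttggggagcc
IL6: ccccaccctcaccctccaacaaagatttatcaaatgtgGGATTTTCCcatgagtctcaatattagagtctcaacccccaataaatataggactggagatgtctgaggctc
CCL20: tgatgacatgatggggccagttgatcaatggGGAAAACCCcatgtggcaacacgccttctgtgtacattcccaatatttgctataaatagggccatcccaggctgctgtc
The motif begins at base -91 in IL8 and at -72 in IL6, counted from the start. CXCL1 and CXCL3 each hold 2 copies, at -78 and -53, and CXCL2 holds 2, at -77 and -53. In CCL20 the match is on the opposite strand, with its leftmost base at -79. The motif occurs in 2.52% of the 35116 windows of this length in the table, and in 6.26% when each window is taken at its full 300 bases. No match lay in the full windows of IL1A and IL1B, 1 lay in the window of 2 of the 3 starts listed for IL1RN, and IL18 was not in the table. Aligned without gaps, the stretches of CXCL1 and CXCL3 were identical at 99 of 110 bases. A match to these letters does not show that a factor bound there.

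Values below are log2 signals after background correction and quantile normalization, and a probe counts as detected where its detection p-value was under 0.05. IL8, CXCL1, CXCL3, CCL20 and IL18 were detected on all 16 arrays, IL1A on 7, IL1RN on 5, IL1B on 4, IL6 on 2 and CXCL2 on 1. Tests required detection on 3 or more arrays, so 8 of the 10 genes were tested, among 12321 probes in all. Each array detected 10363 to 11436 probes. Upper quartile intensities were 397 at 9 h and 418 at 18 h, the dim arrays, and 553 to 804 elsewhere. The mean of the negative controls, inferred from the detection p-values, was 148 to 163 on the arrays from 0 to 21 h and 179 to 191 on those from 24 to 45 h. The ERBB2 probes gave no check of the labels, since both stayed between 5.65 and 6.42. They were detected on 1 array and on 7, and the detection p-values behind the count of 7 do not follow the steps of a single probe. Of 8 epithelial markers 5, among them KRT5 and KRT8, were detected on all 16 arrays, and KRT14 on 1. Of the markers of other cell types, PECAM1 (endothelial), DCN (fibroblast) and the leukocyte markers CD14 and CD68 were detected on all 16 arrays. PECAM1 ranged from 6.07 to 8.12 and was higher on the treated arrays than at 0 h (0.96, adjusted p = 0.01332, limma), and DCN rose by 0.92 on the straight line over 45 h (adjusted p = 0.001079). The other two endothelial markers, VWF and CDH5, and 3 of the 5 fibroblast markers, COL1A1, COL1A2 and PDGFRB, were detected on no array. Summed intensity, 550 at 0 h for the endothelial and 1007 for the fibroblast markers, ranged from 486 to 787 and from 838 to 1311. Of 7 leukocyte markers 4 were detected on 3 or more arrays, with a summed intensity of 1824 at 0 h and 1628 to 3573 over the course. The general leukocyte marker PTPRC was detected on 7 arrays, between 5.56 and 6.22. The myeloid marker CD14 ranged from 6.41 to 8.40, and CD68, another, from 9.10 to 11.20. CD14 (1.21, adjusted p = 0.0007522, limma) and CD68 (1.24, adjusted p = 0.002377) were also higher on the treated arrays, and the part of these markers in the results below was not tested.

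**Figure D1:**
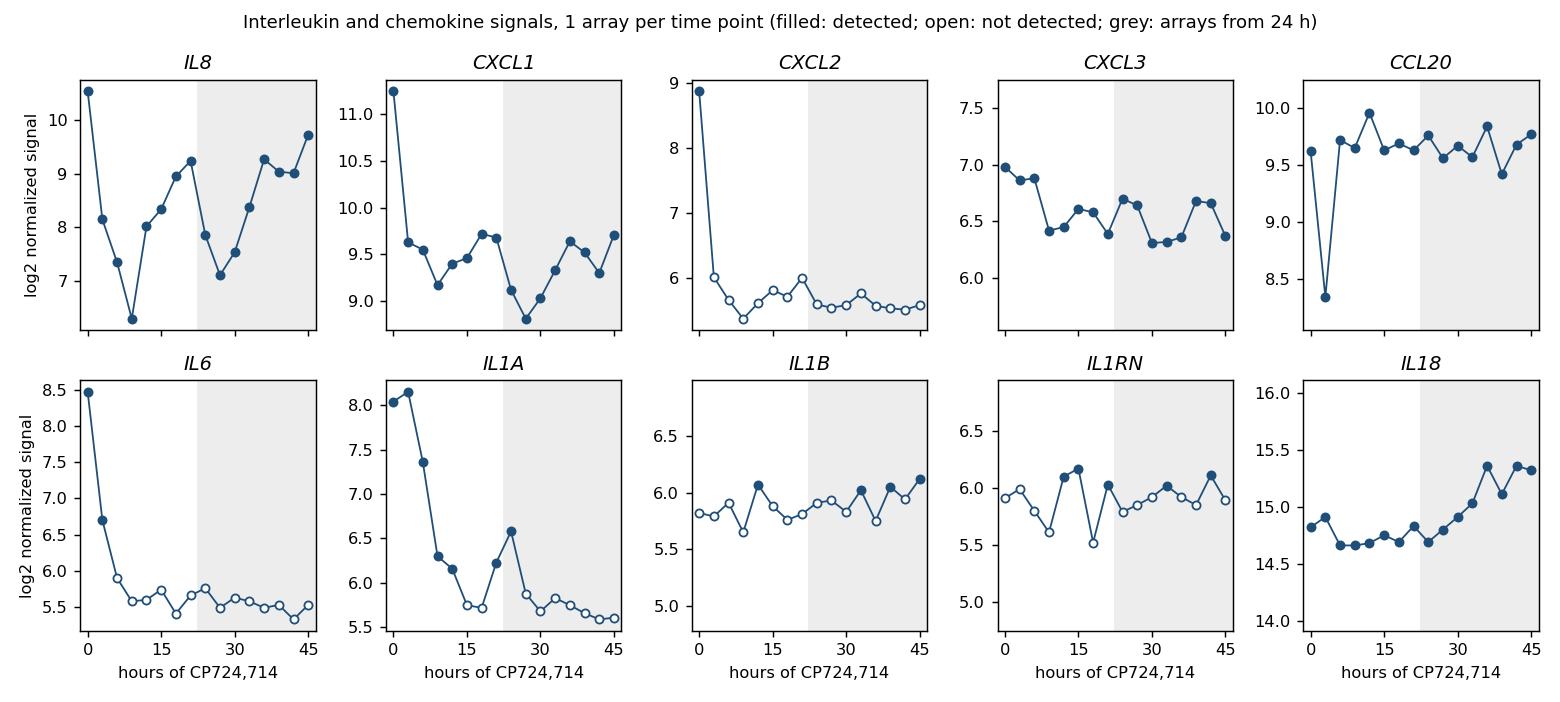
Log2 normalized signal (vertical axes, which differ in range between panels) of the 10 genes against hours of CP724,714, 1 array per point. Filled points were detected and open points were not, and the grey area holds the arrays from 24 to 45 h. IL8, CXCL1, CXCL2, CXCL3 and IL6 were highest at 0 h, and IL18 was highest at 36 and 42 h.

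IL8 and CXCL1, both neutrophil chemokine genes, were lower on every treated array than at 0 h. IL8 fell from 10.54 at 0 h to 8.15 at 3 h, 7.35 at 6 h and 6.30 by 9 h, which was 18.9-fold below the start. The lowest signal of detected probes on the 9 h array was 6.14. IL8 was thus near background there (detection p = 0.0353), and this fold is not an exact size. IL8 then rose to 8.02 at 12 h, 8.34 at 15 h, 8.95 at 18 h and 9.24 by 21 h. A second low followed, with 7.86 at 24 h, 7.11 at 27 h and 7.54 by 30 h, before values of 8.38, 9.27, 9.04, 9.01 and 9.73 at 33, 36, 39, 42 and 45 h. IL8 thus had lows at 9 and 27 h, and at 45 h it was still 1.76-fold below 0 h. The 9 h low fell on 1 of the dim arrays and the drop from 21 to 24 h fell where the negative control level stepped up, and their part in the result was not tested. In the deposited intensities, which were not corrected, IL8 went from 1712 at 0 h to 187 at 9 h and 1138 by 45 h.

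CXCL1 went from 11.25 at 0 h to 9.63 at 3 h, 9.55 at 6 h and 9.17 by 9 h. It lay between 9.40 and 9.72 from 12 to 21 h, at 9.12, 8.81 and 9.03 from 24 to 30 h, and between 9.30 and 9.71 from 33 to 45 h. All treated values were therefore 2.89-fold or more below 0 h, and the lowest, at 27 h, was 5.39-fold below. CXCL1 and IL8 shared the early fall and the low at 27 h, and over the 16 arrays they had a Pearson r of 0.75, or 0.70 over the 15 treated arrays, a description of arrays that form 1 time course.

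The mean of the treated arrays differed from 0 h by -2.26 log2 units for IL8 (SE 0.65, adjusted p = 0.01932, limma), by -1.84 for CXCL1 (SE 0.24, adjusted p = 5.718e-05) and by -1.89 for the alarm cytokine gene IL1A (SE 0.32, adjusted p = 0.0004611). As folds these were 4.79 for IL8 and 3.58 for CXCL1. IL1A was not detected on 9 of the 15 treated arrays, so its difference is not an exact size, and these 9 were at least 4.16-fold below the mean of 0 and 3 h. The scatter of these 9 values is that of background, which limits the p-values of IL1A here and below. IL8, CXCL1 and IL1A, 3 of the 8 tested genes, were lower than at 0 h, and none was higher, where 9.35% of all tested probes were lower and 10.3% higher. By size of the fall IL8 ranked 23 and CXCL1 ranked 55 among the 12321 probes. The comparison rests on a single untreated array, which is assumed to vary like the others. When no curve was fitted among the treated arrays the calls of IL8 (adjusted p = 0.1785) and IL1A (adjusted p = 0.143) were lost, while that of CXCL1 was not. As the RNA is from whole cultures, fewer cells making a transcript and less transcript per cell cannot be told apart.

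**Figure D2:**
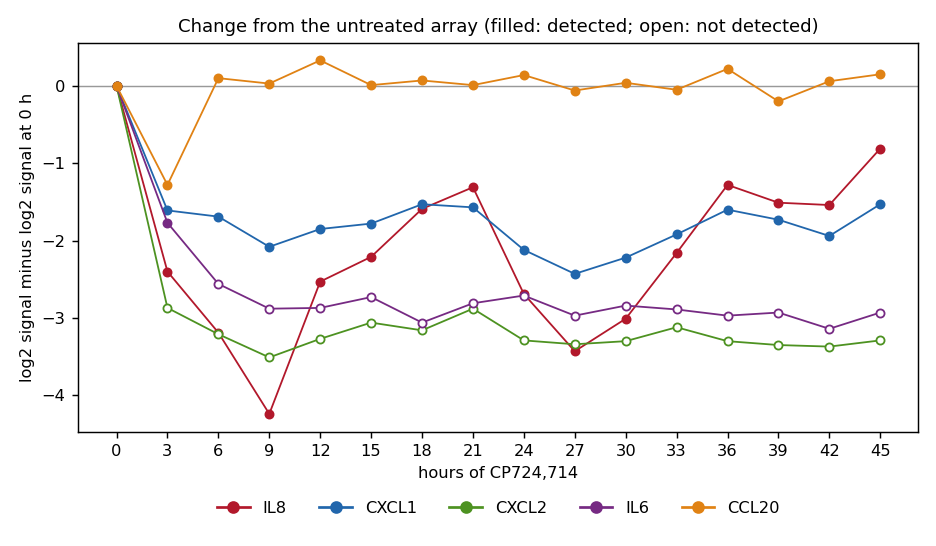
Log2 signal minus the log2 signal at 0 h (vertical axis) against hours of CP724,714 for 5 genes, filled where detected and open where not. CXCL2 and IL6 dropped and were not detected after 3 h, IL8 and CXCL1 stayed below 0 h with a low near 27 h, and CCL20 was below 0 h by 1.28 at 3 h.

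CXCL2 and IL6 were detected only at the start of the course. CXCL2, another neutrophil chemokine gene, was 8.88 at 0 h and 6.01 by 3 h, and its 15 treated values, of which none was detected, lay between 5.37 and 6.01. Against the level at which probes became detectable, CXCL2 was at least 7.18-fold lower on the treated arrays, and the measured means differed 9.33-fold. IL6, the gene of the cytokine that signals through STAT3, was 8.47 at 0 h, 6.70 at 3 h and 5.90 by 6 h, and ranged from 5.33 to 5.76 from 9 to 45 h. It was 3.41-fold lower at 3 h, the last array on which it was detected, and at least 5.4-fold lower from 6 to 45 h. Both genes were left out of the tests by the detection requirement. No p-value is given for them, because their spread on the arrays without detection is that of the background.

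**Figure D3:**
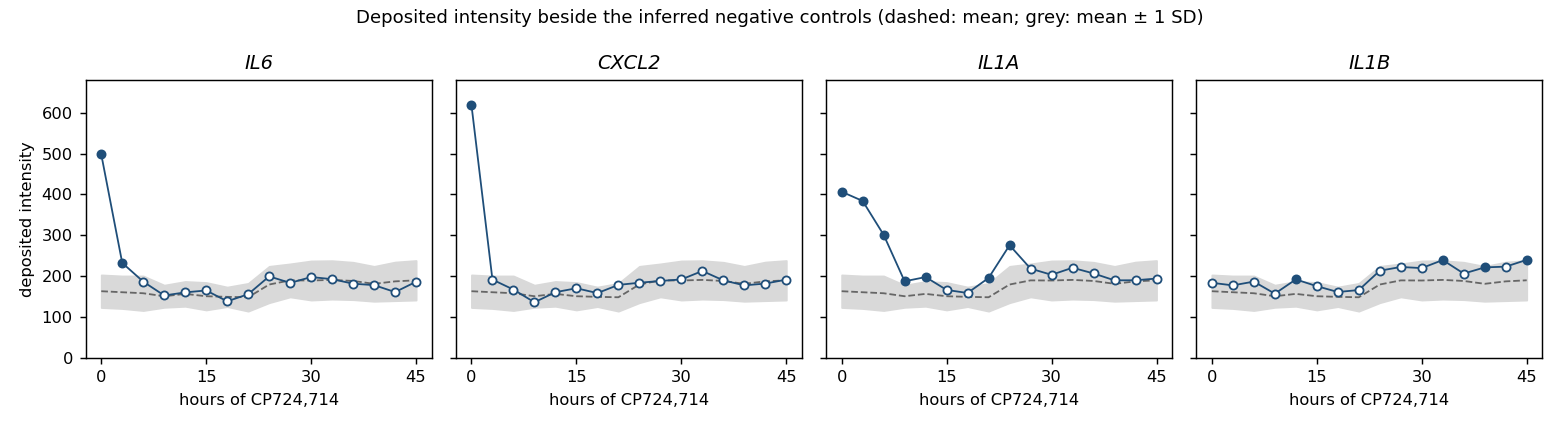
Deposited intensity (vertical axis, linear) of 4 dim genes against hours of CP724,714, filled where detected and open where not. The dashed line and grey band are the mean and 1 SD either side of the negative controls as inferred for each array, and IL6 and CXCL2 lay inside the band from 6 h on.

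CXCL3 and CCL20 did not pass the test against 0 h. CXCL3, whose product acts on neutrophils like that of CXCL1, was 6.98 at 0 h and 6.31 to 6.88 on the treated arrays, with a median of 6.59 over the course. Every treated value was below 0 h, which held for 10.9% of all tested probes, but none by 1.7-fold, and the mean difference of -0.43 (SE 0.20, adjusted p = 0.1405, limma) did not pass. CXCL3 lay near background throughout, since the lowest signal of detected probes ranged from 5.95 (24 h) to 6.15 (18 h). Its falls are therefore not exact sizes, and there was little room for a fall of 1.7-fold. CXCL1, CXCL2 and CXCL3 are close paralogs, and whether their probes bind each other's transcripts was not tested. CCL20, the ligand of CCR6, was 9.62 at 0 h, dropped to 8.34 at 3 h and returned to 9.72 at 6 h. From 6 to 45 h it stayed between 9.42 and 9.96, so that a single array stood apart from the rest. Its treated mean differed from 0 h by -0.03 (SE 0.27, adjusted p = 0.9604, limma).

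At 1.7-fold, the threshold in the study's methods, IL8, CXCL1 and CCL20 were lower at 3 h than at 0 h, 3 of 8 tested genes, where 5.19% of all tested probes were. On all 15 treated arrays IL8 and CXCL1 were lower by 1.7-fold, 2 of 8, where 50 of 12321 probes or 0.406% were. IL1A joined later, so that 4 of 8 passed 1.7-fold at some time point, where 45% of all tested probes did. Each of these counts uses the same 0 h array.

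IL1A had a different course, with no fall by 3 h. It began at 8.04 (0 h) and 8.15 (3 h) and was 7.36 at 6 h, 6.30 at 9 h and 6.16 by 12 h. It was not detected at 15 and 18 h (5.75 and 5.72), was detected again at 21 h (6.23) and 24 h (6.58), and was undetected from 27 to 45 h, with values of 5.59 to 5.88. The arrays from 27 to 45 h were at least 4.19-fold below the mean of the 0 and 3 h arrays. A straight line gave a change of -2.10 log2 units over 45 h (SE 0.39, adjusted p = 0.0006564, limma).

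IL18, an IL-1 family gene whose product is activated by caspase-1, was the only tested member with a rise on the straight line over all 16 arrays. It was 14.82 at 0 h and lay between 14.66 and 14.91 up to 27 h. It was then 14.91 at 30 h, 15.03 at 33 h, 15.36 at 36 h, 15.11 at 39 h, 15.36 at 42 h and 15.32 by 45 h. The linear rise over 45 h was 0.62 (SE 0.12, adjusted p = 0.001317, limma), and the lowest and highest arrays differed 1.62-fold, under the 1.7-fold threshold. Its treated mean did not pass against 0 h (0.10, adjusted p = 0.5612). With the side of 24 h as a block the linear call was lost (adjusted p = 0.1302), and with median scaling the rise was 0.51 (adjusted p = 0.02837, limma). Quantile normalization sets a signal by its rank on its array. It gave IL18 the same 14.66 at 6 and 9 h, for deposited intensities of 25692 and 16379.

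Of the 8 tested genes, IL18 rose and IL1A fell on the straight line, where 13.1% of all probes rose and 11.3% fell. A smooth curve in time with 4 degrees of freedom found IL1A (adjusted p = 7.158e-06, limma), IL18 (adjusted p = 0.0001008) and CXCL1 (adjusted p = 0.01874) time-dependent, 3 of 8, where 42.3% of all tested probes were. The call of CXCL1 rested on the 0 h array, without which its adjusted p was 0.4512. IL8 missed the threshold with this curve (adjusted p = 0.07524) and passed it with 5 degrees of freedom (adjusted p = 1.332e-05). CCL20 passed only with the 0 h array left out (adjusted p = 0.0172) or with weights given to the arrays (adjusted p = 0.007258).

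Because the negative control level stepped up at 24 h, the courses were also compared within the arrays on either side. From 24 to 45 h alone, IL8 rose by 2.33 log2 units per 21 h (SE 0.34, adjusted p = 0.0003468, limma), CXCL1 by 0.70 (SE 0.18, adjusted p = 0.01238) and IL18 by 0.68 (SE 0.11, adjusted p = 0.0004829). These were 3 of the 8 tested genes, where 12.3% of all probes rose. IL1A had a slope of -0.70 (SE 0.20, adjusted p = 0.02184) among these arrays, on which it was detected at 24 h only, and 13% of all probes fell. From 0 to 21 h alone IL1A fell (-2.48, SE 0.46, adjusted p = 0.01262), where 5.54% of all probes fell, and the slopes of IL8 (-0.04, adjusted p = 0.9867), CXCL1 (-0.88, adjusted p = 0.2705) and IL18 (-0.06, adjusted p = 0.769) did not pass. In a single fit of all 16 arrays with its wider residual spread, the later slope of IL8 had the same size but did not pass (2.33, SE 0.92, adjusted p = 0.1571). The later slopes of CXCL1 (0.70, SE 0.42, adjusted p = 0.3726, limma) and IL1A (-0.70, SE 0.38, adjusted p = 0.3048) did not pass in it either. Only that of IL18 did among these genes (0.68, SE 0.11, adjusted p = 0.002714). That fit found the later slope different from the earlier for IL1A and IL18, 2 of 8, where 24.7% of all probes had slopes that differed.

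IL1B and IL1RN stayed near the limit of detection. IL1B, the gene of the other IL-1 receptor agonist, ranged from 5.65 to 6.12, was detected at 12, 33, 39 and 45 h, and passed no test (adjusted p = 0.5549 for the curve, limma). IL1RN ranged from 5.52 to 6.17, with a curve adjusted p of 0.9739. The other probe of IL1RN, which was detected on no array, disagreed with it: it gave 6.86 at 0 h, 7.04 at 3 h and 6.26 by 6 h, and 5.52 to 5.88 from 9 h on. Its deposited detection p-values do not follow the steps of a single probe, so its detection and its level were not set against the same background. No level of IL1B or IL1RN can be given on the arrays where they were not detected.

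IL8, CXCL1, CXCL3 and CXCL2 lie in a stretch of 9 protein-coding genes on chromosome 4, in the RefSeq order CXCL8, CXCL6, PF4V1, CXCL1, PF4, PPBP, CXCL5, CXCL3 and CXCL2. Of the neighbours, CXCL6, PF4 and CXCL5 were detected on no array and PF4V1 on 1. PPBP, which encodes a platelet chemokine, was detected on all 16 and its treated mean differed from 0 h by -0.22 (adjusted p = 0.4123, limma). In the stretch of 9 genes that runs from IL1A and IL1B to IL1RN, IL37, IL36A and IL36B were detected on no array. IL36RN, the gene of a receptor antagonist, was detected on all 16 and ranged from 6.45 to 7.22. Its treated mean differed from 0 h by -0.07 (adjusted p = 0.8842).

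The genes around NF-κB were counted from lists drawn up with earlier results of these data known. Of 16 tested genes for NF-κB subunits, inhibitors and feedback, 9 (56.2%) were time-dependent, against 42.3% of all tested probes. Of the 16, 5 were lower than at 0 h and 1 was higher, where 9.35% and 10.3% of all tested probes were, and the median difference from 0 h was -0.43 log2 units against 0.01. TNFAIP3, which encodes the feedback inhibitor A20, was 10.07 at 0 h, 9.44 at 3 h and 6.90 by 45 h, with a low of 6.66 at 9 h. Its treated mean differed by -2.76 (SE 0.43, adjusted p = 0.0002668, limma). RELB, an NF-κB subunit gene, was 9.06 at 0 h and 8.97 by 3 h and was lowest at 12 h (6.46), a difference of -1.49 (adjusted p = 0.02234). NFKBIE, which encodes the inhibitor IκBε, was 8.13 at 0 h, 7.74 at 3 h and 6.36 by 45 h (-1.40, adjusted p = 0.0004709). TNFAIP3 and NFKBIE were highest at 0 h, as IL8 and CXCL1 were, and the same 0 h array serves all of these differences.

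Of 12 tested inflammatory target genes of NF-κB, 10 (83.3%) were time-dependent, against 42.3% of all tested probes. Of the 12, 6 were lower than at 0 h and none was higher, where 9.35% of all tested probes were lower, and the median difference was -0.73. PLAU, the gene of the protease urokinase, was 10.70 at 0 h, 9.65 at 3 h and 7.94 by 45 h, a linear change of -2.51 log2 units (adjusted p = 3.664e-05, limma). PTX3, the gene of a soluble pattern recognition protein, was 8.15 at 0 h, 7.32 at 3 h and 6.27 by 45 h, with a treated mean that differed by -1.77 (adjusted p = 2.907e-05). SAA1, an acute phase protein gene, went from 8.43 at 0 h to 6.39 at 9 h and 8.80 by 45 h. It was time-dependent (adjusted p = 0.00327), but its treated mean did not pass against 0 h (-0.73, adjusted p = 0.161). SAA1 was also the gene whose course was most like that of IL8 among 2073 probes with a wide fitted range that were detected on every array. Their Pearson r was 0.87 over the 16 arrays and 0.88 over the 15 treated arrays. This pair was looked up after the values of IL8 were seen, since IL8 itself missed the threshold for naming like genes.

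**Figure D4:**
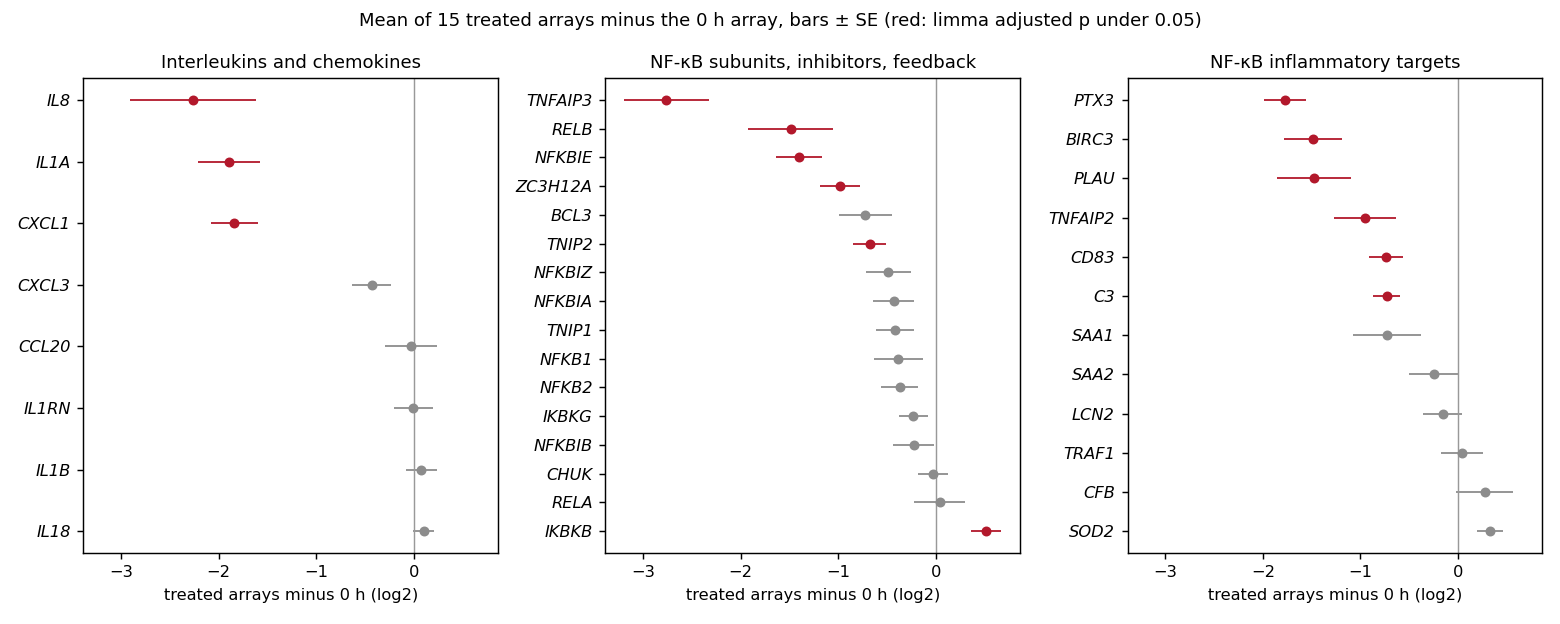
Mean of the 15 treated arrays minus the 0 h array (horizontal axis, log2 units, bars ± SE) for the tested members and the tested genes of both NF-κB lists. Red marks an adjusted p under 0.05 in limma, reached by 3 of 8 members, 6 of 16 genes of the first list and 6 of 12 of the second.

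The shares for the receptors and signalling genes of these cytokines were near those of all probes. Of 18 tested genes, 8 (44.4%) were time-dependent, against 42.3%, 1 was higher than at 0 h, against 10.3%, and 2 were lower, against 9.35%. Their median difference was 0.03. IL1RAP, the co-receptor that IL-1 needs to signal, was 7.67 at 0 h, 6.87 at 3 h and 5.62 by 45 h and differed by -1.78 (SE 0.24, adjusted p = 8.323e-05, limma). It was detected on 5 arrays, so its later values are near background and its difference is not an exact size. The scatter of the values without detection is that of background, which limits the p-value of IL1RAP. IL1R2, the decoy receptor, ranged from 10.25 at 9 h to 12.51 at 18 h (adjusted p = 0.00345 for the curve), and did not pass against 0 h (0.19, adjusted p = 0.8292). The detection p-values of IL1R2, and those of CCL28 below, do not follow single-probe steps either. TOLLIP, which restrains IL-1 receptor signalling, was 8.78 at 0 h, 9.27 at 3 h and lowest at 12 h (7.51, adjusted p = 0.008477 for the curve).

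Among 9 tested genes of other cytokines 2 (22.2%) were time-dependent, against 42.3% of all tested probes. In that list 1 was higher and 2 were lower than at 0 h, where 10.3% and 9.35% of all probes were, with a median difference of 0.08. LIF, an IL-6 family cytokine gene, was 8.49 at 0 h, 7.60 at 3 h and 6.85 by 45 h (-1.68, adjusted p = 0.00025, limma). TNFSF10, which encodes the death ligand TRAIL, went the other way, from 6.15 at 0 h to 8.88 at 45 h, a linear rise of 2.69 (adjusted p = 2.783e-05). Of 10 tested genes of other chemokines 7 (70%) were time-dependent, against 42.3% of all tested probes. Of these 10, 2 rose on the straight line, where 13.1% of all probes did, and 1, CXCL10, was lower than at 0 h, where 9.35% were, with a median difference of -0.09. CXCL10, a ligand of CXCR3, was 7.00 at 0 h, 5.82 at 9 h and 6.29 by 45 h (-0.78, adjusted p = 0.01936). CXCL16, a membrane-bound chemokine gene, was 9.03 at 0 h and 10.52 by 45 h, a linear rise of 0.87 (adjusted p = 0.01779), and CCL28, an epithelial chemokine gene, ranged from 6.51 to 7.70 (adjusted p = 0.01012 for the curve).

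Among 6 tested regulators of AU-rich transcripts, the class to which many chemokine messages belong, 2 (33.3%) were time-dependent and 2 were lower than at 0 h, where 42.3% and 9.35% of all tested probes were, and the median difference was -0.09. ZFP36, which encodes the decay factor tristetraprolin, was 12.78 at 0 h and 12.83 by 3 h, with a low of 12.03 at 21 h (-0.42, adjusted p = 0.03477, limma). HNRPD, which encodes the AU-binding protein AUF1, ranged from 11.72 at 6 h to 13.07 at 12 h and was time-dependent (adjusted p = 0.01666).

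For the members that were time-dependent and detected on every array, the 3 genes with the most similar courses were found among the same 2073 probes. For IL18 these were WDR23 (r = 0.94), CITED2 (r = 0.93) and FBLN1 (r = 0.92) over 16 arrays. Their r over the 15 treated arrays was 0.94, 0.93 and 0.93. CITED2 was 11.51 at 0 h and 12.59 by 45 h, and FBLN1 was 11.89 and 12.80. For CXCL1 they were ATXN7L2 (r = 0.86), FAM43A (r = 0.86) and FLJ10374 (r = 0.83), but over the treated arrays alone the r fell to 0.31, 0.55 and 0.47, so that the likeness lay largely in the 0 h array. IL8 and IL18 had an r of 0.51 over 16 arrays and 0.67 over the treated ones. CCL20 had its closest course in OSR1 (r = 0.93), a pair also looked up after its values were seen. OSR1 was 8.79 at 0 h, 6.56 at 3 h and 8.78 by 9 h, so the low at 3 h stood on the same array in both genes.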

How the data were processed

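The members and the gene lists were chosen with earlier results of these data known. Total RNA from 16 parallel cultures was measured on Illumina Ref-8 v2 human arrays, 1 per time point. The authors deposited a non-normalized intensity and a detection p-value for each probe and array, which set the probe against the negative controls of its array, and their methods state quantile normalization. The number of arrays limits precision. The p-values measure the scatter of single arrays about a curve, which may be technical in part.

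Intensities were background-corrected with neqc (limma 3.58.1, R 4.3.3, offset 16), quantile normalized and taken to log2. The offset pulls folds of dim probes toward 1. The negative control mean and SD were inferred from the deposited detection p-values of the 19085 probes whose p-values follow steps of 1 in 708, within 0.001. The other 1504 probes do not follow these steps, and 138 of them had a p of 0.05 or more with an intensity over 300 at 0 h, against 0 of the former. Using all probes, the limma default, raised the inferred SD from 23.9 to 48.4 up to 212 to 491. This choice was made after the members' values under the default had been seen, and the default is given as an alternative.

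The tests took probes detected (p under 0.05) on at least 3 arrays (12321 probes with 11565 symbols, 40.2% left out). limma (lmFit, eBayes with trend) fitted a straight line (as the change over 45 h), a natural spline of time (4 degrees of freedom), the treated arrays against 0 h with a centred spline of 3 degrees of freedom, and a line on each side of 24 h. P-values were adjusted by Benjamini-Hochberg over all tested probes, at 0.05. Where a gene was not detected, its fold is against the lowest signal of detected probes. The fits were tested on simulated data. Named list genes are the 3 with the widest fitted range among those past the spline threshold. Like genes are the 3 with the highest r among probes detected on all arrays with a fitted range of 1 or more. Symbols are those of the deposited table, of which 9 members are current in RefSeq and IL8 matched CXCL8 through a synonym. Alternatives changed the normalization, background correction, detection filter, curve and array weights, used the side of 24 h as a block, and left out arrays. Figures were drawn with matplotlib 3.10.9.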

Additional observations from a re-analysis of the deposited data

Results flagged for a closer look

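The slope of IL1A differed between the arrays from 24 to 45 h and those from 0 to 21 h, the later minus the earlier being 1.78 log2 units over 21 h (SE 0.53, adjusted p = 0.02145, limma). IL1A was detected on 6 of the 8 earlier arrays and on 1 of the 8 later ones, so its later slope lies near background.

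The slope of IL18 differed in the same way, by 0.74 (SE 0.16, adjusted p = 0.004697), with -0.06 over the earlier arrays and 0.68 over the later ones. The fit gives each side of 24 h its own level, so a shift in level between the sides is not part of either difference. Any effect of the higher negative control level on the later slopes cannot be told apart from time.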

How the results depend on the processing

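No paired analysis was possible because the groups hold 1 array each. Of 766 member values recomputed under the alternatives, 735 counted as the same, 8 lost a call, 21 gained one and 2 reversed. A value was reversed where its sign changed and it passed in the main or the alternative setting. Changes of sign between values that did not pass were counted as the same. An example is the treated mean of IL18 against 0 h, 0.10 in the main setting and -0.165 with median scaling. The 2 reversed values were the linear slope of IL18 on the arrays from 0 to 21 h alone (-0.12 per 45 h, adjusted p = 0.769) and that of CXCL1 on those from 24 to 45 h alone (1.49 per 45 h, adjusted p = 0.01238), both in limma. With no detection filter, 5 members instead of 3 were time-dependent and 5 instead of 3 were lower than at 0 h, since CXCL2 and IL6 then entered, whose spread is that of background on the arrays where they were not detected. With no spline among the treated arrays 1 member was called against 0 h. The count of linear calls, 2, became 1 with probes detected on all 16 arrays, 1 with the side of 24 h as a block, 1 on the arrays from 0 to 21 h alone and 4 on those from 24 to 45 h alone. The count of differing slopes, also 2, became 1 with median scaling, where IL18 missed the threshold (adjusted p = 0.06415), and 1 with probes detected on all 16 arrays.

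Leaving out 1 array at a time gave 3 to 4 time-dependent members, 2 to 3 linear calls, 1 to 3 differing slopes, 3 to 3 calls against 0 h and 3 to 4 members past 1.7-fold. The slope difference of IL1A was lost without the 3 h array (adjusted p = 0.05462) or the 45 h array (adjusted p = 0.07046), that of CXCL1 was gained without the 3, 6, 9 or 21 h array (lowest adjusted p = 0.03386), and IL8 gained a linear rise without the 0 h array (1.86, adjusted p = 0.04038). IL8 became time-dependent in 12 of 29 alternatives. Among them were the fits without the 24, 27, 33, 36, 39, 42 or 45 h array (lowest adjusted p = 0.01344, limma). No background correction (adjusted p = 0.04871, limma) and median scaling (adjusted p = 0.04955) also gave the call. So did the limma default for the negative controls, an alternative chosen after seeing the data (adjusted p = 0.02429). CXCL1 lost its time dependence with array weights (adjusted p = 0.3048). The causes were not tested. IL6, CXCL2, CXCL3, IL1A, IL1B and IL1RN are limited by signal over background.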
